A study of Mus musculus with 2 samples.

Results

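Mbnl2 binding was examined at 9 genes of the muscle Z-disc and its intermediate filament, *Flnc*, *Myot*, *Myoz1*, *Myoz3*, *Sorbs2*, *Synpo2*, *Synpo2l*, *Des* and *Tcap*, chosen by name from the 22380 protein-coding genes of the mm9 GENCODE vM1 annotation. The data are HITS-CLIP tags, the short RNA fragments that remain crosslinked to a protein after RNase A digestion and immunopurification, here with an antibody against Mbnl2. Quadriceps muscle of WT and *Mbnl1*-/- (*Mbnl1* KO) mice was used, at 15 to 16 weeks of age and with C57BL/6 labelled as the strain (the study's methods name a mixed background for the heterozygotes crossed to make compound knockouts), and 3 mice per genotype were merged into 1 table. The mouse of origin and the RNase concentration (38.6 or 0.0386 U/ml) of a tag cannot be told apart, so no spread between mice and no test between genotypes is given, and intervals cover counting error only. Each tag on the strand of a gene was counted once, scaled to 1000000 tags of its table, and the *Mbnl1* KO level was divided by the WT level to give a ratio with an exact 95% Clopper-Pearson interval.

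The Z-disc anchors the thin filaments of neighbouring sarcomeres and holds a dense set of adaptor proteins. Filamin C (*Flnc*) crosslinks actin, and myotilin (*Myot*) and the calsarcins (*Myoz1*, *Myoz3*) bind both filamin C and alpha-actinin. Synaptopodin-2 (*Synpo2*, also called myopodin) and its relative *Synpo2l* bundle actin, *Sorbs2* encodes an adaptor with a sorbin homology domain, desmin (*Des*) is the intermediate filament of muscle, and telethonin (*Tcap*) caps the end of titin at the Z-disc. Muscleblind-like proteins are known for binding RNA at YGCY motifs (Y is C or T), in introns beside alternative exons and in 3′ UTRs.

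There were 343554 WT tags, drawn from 5176203 reads, and 476543 *Mbnl1* KO tags, drawn from 50329234 reads, so the *Mbnl1* KO tags rest on deeper sequencing. Tags whose reference sequence is at least 70% one base (single-base tags) accounted for 44.0% of the WT and 17.0% of the *Mbnl1* KO tags on assembled chromosomes, and leaving them out lowers the factor that scales a raw ratio from 0.721 to 0.492. Their part in the ratios is therefore given below as values without them. All 7 fast muscle markers carried tags, 390 in WT and 1335 in *Mbnl1* KO muscle, while 5 and 17 lay on the slow muscle pair *Myh7* and *Tnnt1*, 13 and 15 on the smooth muscle pair *Myh11* and *Cnn1*, 168 and 682 on 3 fibroblast genes, 29 and 73 on 2 endothelial and 1 and 13 on 2 adipocyte genes. There were 1 and 5 on 2 Schwann cell genes, and 5 WT and 3 *Mbnl1* KO tags on 2 blood genes. The targeted gene *Mbnl1* still had 100 WT and 452 *Mbnl1* KO tags over its body. The allele is named for a deletion of exon 3, whose coordinates are not given in the sources used here. In the annotated transcript with the longest coding sequence, exon 2, where that sequence starts, had 5 WT and 2 *Mbnl1* KO tags, and exon 3 had 0 and 4. A few *Mbnl1* KO tags thus lay on each of these exons. The deleted stretch could not be matched to an annotated exon, so the tags do not settle whether the label is right.

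Binding sites of *Synpo2*, *Synpo2l* and *Tcap* are shown first. A site is the 30 nt around the highest coverage of a cluster, that is, of a run of 10 or more overlapping WT or *Mbnl1* KO tags on the gene's strand. The sequences are from the mm9 reference, 5′ to 3′ on the strand of the gene, with YGCY (TGCT or TGCC or CGCT or CGCC, searched on the gene's strand, overlaps allowed) in capitals. The site of the highest cluster comes first for its gene, and further sites of at least 13 tags were added after their values were seen. The cluster with the most tags of all, on *Myot*, is described with that gene and its sequence is not shown.
Synpo2l, chr14:21478969-21478998, minus strand, 3′ UTR: gtggttaggatcTGCTctagaaagacatca
Synpo2l, chr14:21479148-21479177, minus strand, 3′ UTR: actgtaaggcaagcttctaagaggctgaac
Synpo2, chr3:122813917-122813946, minus strand, 3′ UTR: tcttcTGCTGCCaaTGCCtttcTGCTgtat
Synpo2, chr3:122815044-122815073, minus strand, 3′ UTR: gatacattaggatttaTGCTttCGCCataa
Synpo2, chr3:122815276-122815305, minus strand, 3′ UTR: ttgggtgtccacttTGCTtgaaatgaatcg
Tcap, chr11:98245761-98245790, plus strand, CDS: atcacaaagcagcttccccctgtggTGCCa
Tcap, chr11:98245945-98245974, plus strand, 3′ UTR: tggcTGCTttgtagttTGCCcagaggtggg

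The 9 genes had 15 clusters, 7 on *Synpo2*, 4 on *Synpo2l*, 2 on *Tcap* and 2 on *Myot*, and none on the other 5 genes. Of these, 11 lay in a 3′ UTR, 3 in coding sequence and 1 in an intron. The intronic cluster, in *Synpo2*, consisted of 10 single-base tags. Among the other 14, the site held at least 1 YGCY motif in 11 (78.6%) and at least 2 in 4. At least 1 motif was found in 72.5% and at least 2 in 36.2% of the 1490 clusters on all protein-coding genes with at least 20 tags (single-base clusters left out), against 33.2% of 30 nt tiles of the coding sequence and 27.7% of those of the 3′ UTRs of these genes. The richest site was the *Synpo2* one at 122813917, with 4 motifs, and the *Synpo2l* site at 21479148 had 0, which says only that the 4 words are not in that window. The *Mbnl1* KO/WT ratio of these 14 clusters had a median of 1.88, against 2.88 for the 1490 (clusters with 0 WT tags at their lower bound). Its interval lay above 1 at 6 of them, against 42.4% of the 1490, and a scale without single-base tags left 4, against 21.7%. When at least 2 reads per tag were required as well, it lay above 1 at none, against 1.88% of the 1490. A cluster needed 10 tags of both genotypes together, and 10 of the 15 had fewer than 5 WT tags. Clusters with few WT tags passed through the *Mbnl1* KO tags, so a high ratio is partly built in. No gain in binding is read from these counts.

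Over the whole gene bodies, 178 WT and 512 *Mbnl1* KO tags were counted, or 518 and 1070 per 1000000, for a ratio of 2.07 (1.75 to 2.47). In whole muscle, a change in the number of cells of a type, in RNA per cell and in binding per RNA cannot be told apart, and RNA levels were not measured here. The ratio was above 1 at 8 of the 9 genes, and at 79.9% of all 3888 protein-coding genes with at least 20 tags, and its median over the 9 was 1.91. Of these genes, 8 had at least 20 tags, and the ratio reached 2 at 4 of these 8, against 41.6% of the 3888. The interval lay above 1 at 5 of the 8, against 38.6% of all these genes, whose median ratio was 1.75. With 8 genes, neither count is read as a property of this set. With single-base tags left out, the interval lay above 1 at 3 genes, *Flnc*, *Synpo2l* and, with a bound of 1.00, *Synpo2* (26.5% of the 3307 genes tested) and the ratio reached 2 at 2 (29.1%), and the median ratio of the 8 genes with at least 20 such tags was 1.44 beside 1.48 for all genes with as many. When at least 2 reads per tag were required as well, none of the 9 genes had its interval above 1 (11.1% of 1651 genes did). The median of the 6 genes with at least 20 such tags was then 1.08, beside 1.33 for the 1651.

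**Figure D1:**
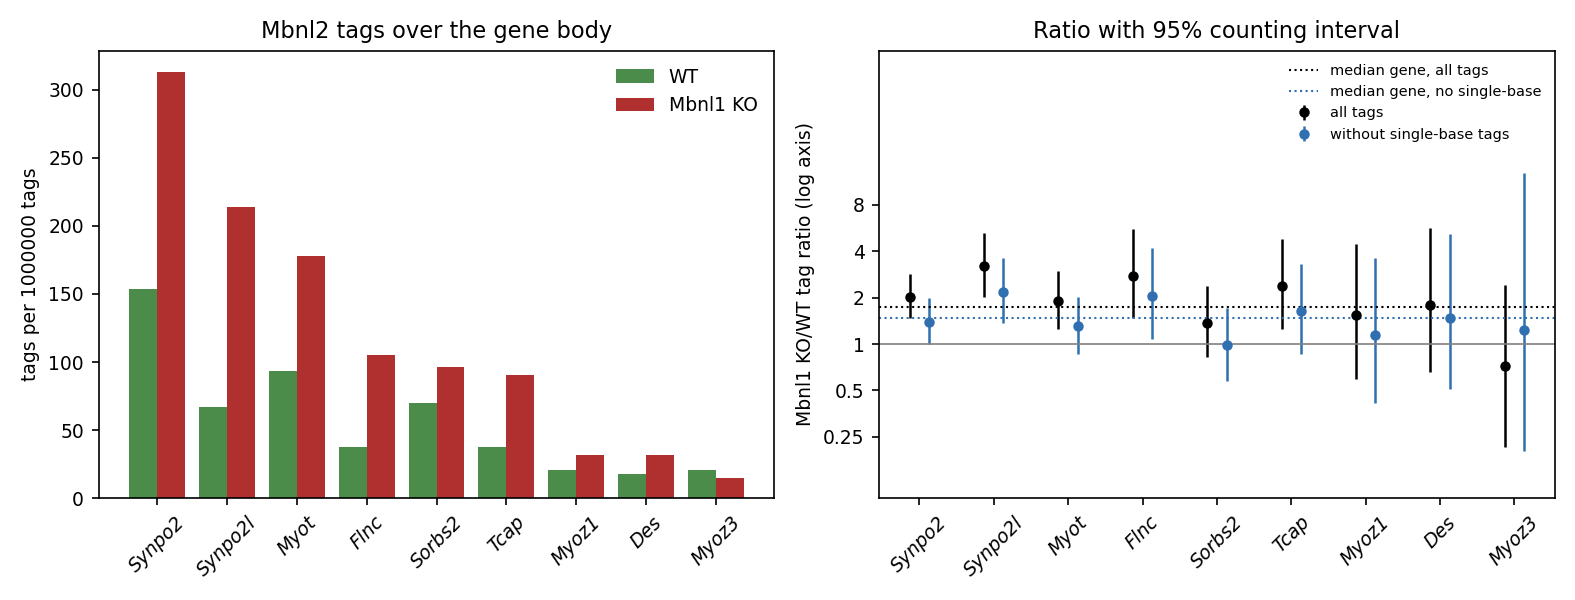
Left, Mbnl2 tags over each gene body per 1000000 tags of the table in WT (green) and *Mbnl1* KO (red) muscle, 1 merged table each. Right, the *Mbnl1* KO/WT ratio (log axis) with its 95% counting interval, with all tags (black) and without single-base tags (blue), and the median of all genes with at least 20 tags as dotted lines (1.75 and 1.48); *Synpo2l* is highest in both settings, at 3.20 and 2.18.

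*Synpo2l* (ENSMUSG00000039376.7, chromosome 14 from 21478168 to 21487576, minus strand) had the highest ratio with all tags counted, though its interval overlapped that of *Flnc*. With the same 5′ end collapsed, *Flnc* was higher (2.81 against 2.67). Without single-base tags and with at least 2 reads, *Des* (3.45) and *Flnc* (2.09) were above *Synpo2l* (1.83), but the interval of each included 1. *Des* then had 1 WT and 11 *Mbnl1* KO tags (0.501 to 148) and *Flnc* 6 and 40 (0.88 to 6.03). *Synpo2l* had 12 and 70 (0.983 to 3.71), so this order is not read as a difference between the genes. With all tags, *Synpo2l* carried 23 WT and 102 *Mbnl1* KO tags, or 66.9 and 214 per 1000000, a ratio of 3.20 (2.02 to 5.27), and no single-base tag. With those tags left out of the scale the ratio was 2.18 (1.38 to 3.60). The tags were almost all exonic, with 17 WT and 82 *Mbnl1* KO tags in the 3′ UTR, 6 and 19 in the coding sequence and 0 and 1 in introns. In the 3′ UTR the ratio was 3.48 (2.05 to 6.26).

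Along this 3′ UTR the tags formed 3 clusters, whose intervals overlap and between which no difference was tested. The 2 with few WT tags reached 10 tags through the *Mbnl1* KO tags. The cluster of its first site above (21478968 to 21479004), 540 nt after the stop codon, had 2 WT and 23 *Mbnl1* KO tags (8.29, interval 2.05 to 72.5). The neighbouring cluster, from 21479071 to 21479209, had 2 and 27 (9.73, 2.45 to 84.5). Nearer to the stop codon, the cluster from 21479359 to 21479406 had 5 in WT and 6 in *Mbnl1* KO muscle (0.865, 0.220 to 3.58). A cluster in the coding sequence, from 21479962 to 21480000, had 3 and 7 (1.68, 0.384 to 10.1). The first 2 stayed above 1 with single-base tags left out of the scale, with 5.66 (1.40 to 49.5) and 6.64 (1.67 to 57.6), and included 1 when at least 2 reads per tag were required as well.

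*Synpo2* (ENSMUSG00000050315.5, chromosome 3 from 122779437 to 122939067, minus strand) carried the most tags, 53 in WT and 149 in *Mbnl1* KO muscle (154 and 313 per 1000000, ratio 2.03, interval 1.47 to 2.83). Of its 202 tags, 161 fell in 1 exon, exon 4 of the transcript Synpo2-001 (122813882 to 122817544), 39 of them WT and 122 *Mbnl1* KO tags. The longer coding transcripts share the coding part of this exon but leave it by splicing before its stop codon, so its 3′ UTR is intronic to them, and they end in another exon (122779437 to 122783176). The 3′ UTR of 1438 nt of Synpo2-001 had 35 WT and 114 *Mbnl1* KO tags, while that of the longer transcripts, of 3200 nt, had 1 and 3. Of the tags on annotated 3′ UTRs of *Synpo2*, nearly all were thus on that of Synpo2-001, in both genotypes. The use of each end and the binding to it cannot be told apart.

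The 6 clusters of this 3′ UTR had intervals that overlap, and no difference between them was tested. A cluster needed 10 tags of both genotypes together, so those with few WT tags passed through the *Mbnl1* KO tags. The one with the most tags, near the 3′ end and 49 nt before the end of the transcript (122813912 to 122813973), had 10 tags in WT and 18 in *Mbnl1* KO muscle (1.30, 0.568 to 3.15). The cluster from 122815003 to 122815084 was alike, with 8 and 15 (1.35, 0.538 to 3.68). Between them lay clusters with 4 WT and 6 *Mbnl1* KO tags (122814560 to 122814645, ratio 1.08, 0.256 to 5.21) and with 4 and 8 (122814673 to 122814723, 1.44, 0.386 to 6.54). Just after the stop codon, from 122815261 to 122815321, there were 3 and 15 (3.60, 1.02 to 19.4). From 122814799 to 122814857 there were 12 *Mbnl1* KO tags and 0 WT tags, which allow up to 8.73 per 1000000 in WT. The *Mbnl1* KO value of 25.2 is at least 2.88-fold higher if its own counting error is set aside. The interval of the ratio, which covers that error, ran from 2.0 upward. Without single-base tags in the scale, the interval of that cluster started at 1.37, and at 0.535 when at least 2 reads per tag were required as well, and the ratio of the cluster after the stop codon was 2.46 (0.696 to 13.3). Without single-base tags the gene's ratio was 1.40 (1.00 to 1.99).

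**Figure D2:**
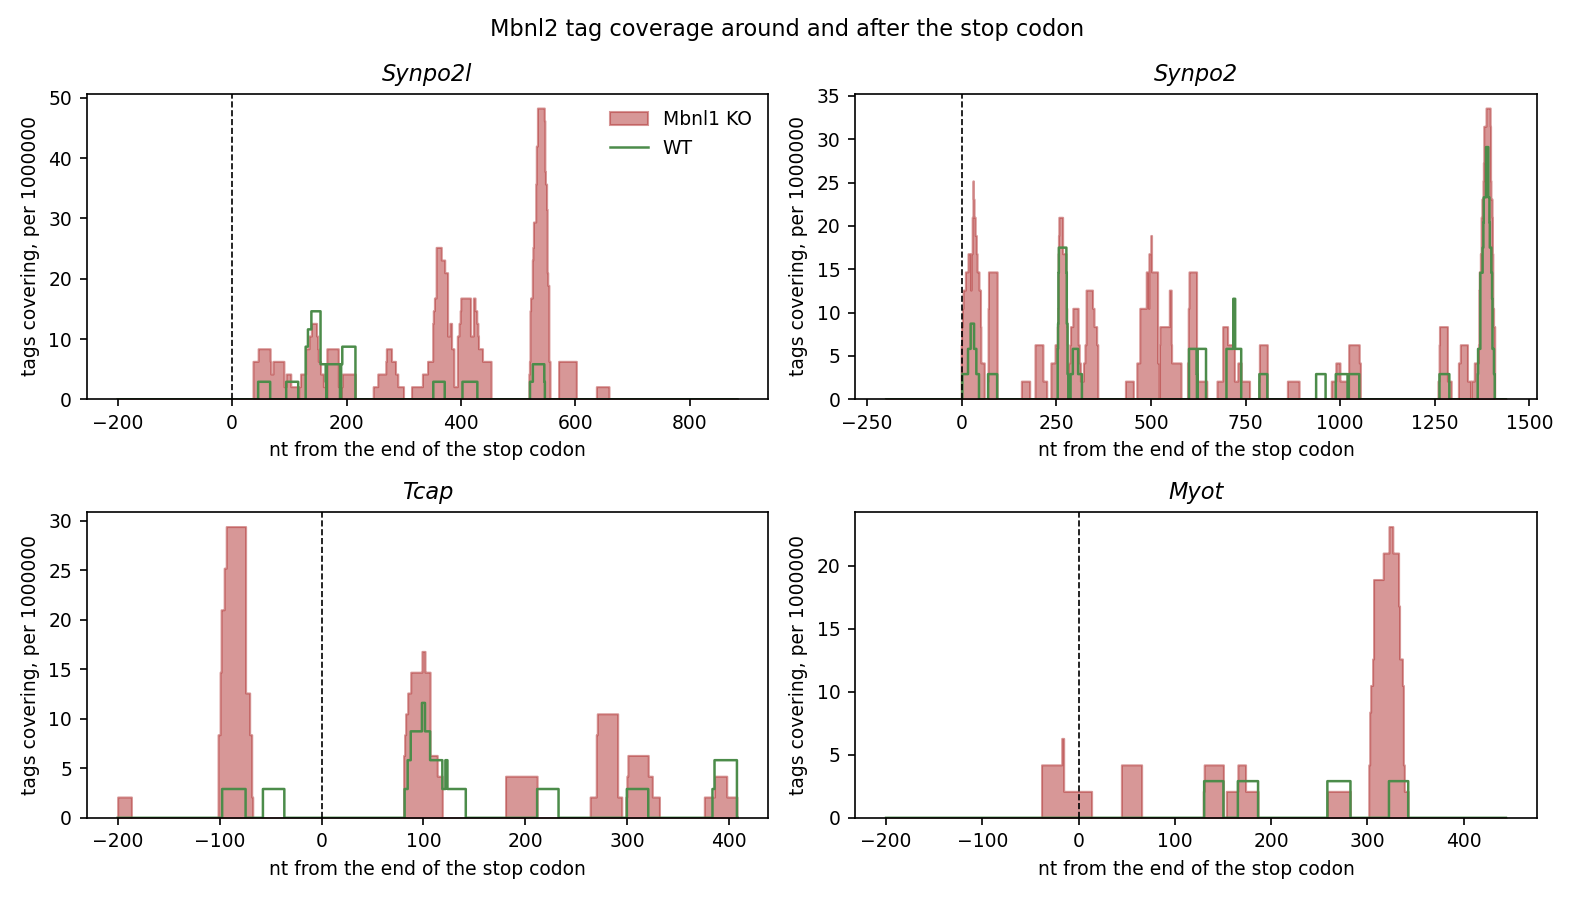
Tags covering each nucleotide per 1000000 tags of the table, against the distance in nt from the end of the stop codon (dashed line), in WT (green line) and *Mbnl1* KO muscle (red area), for *Synpo2l*, *Synpo2*, *Tcap* and *Myot*, up to the end of the transcript that holds the clusters. The tall *Synpo2l* peak at 540 nt and the *Tcap* peak 84 nt before the stop codon are nearly absent from WT (2 and 1 WT tags), while the last *Synpo2* peak is of like height in both (10 WT and 18 *Mbnl1* KO tags before scaling). The *Synpo2l* and *Tcap* peaks were picked as clusters that reached 10 tags through the *Mbnl1* KO tags, so their low WT height is partly built in.

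*Tcap* (ENSMUSG00000007877.2, chromosome 11 from 98245125 to 98246267, plus strand) is a short gene of 1143 nt with 2 exons. With 13 WT and 43 *Mbnl1* KO tags (37.8 and 90.2 per 1000000), its ratio was 2.38 (1.26 to 4.83), and 1.63 (0.859 to 3.30) without single-base tags. With at least 2 reads per tag as well, the ratio turned to 0.94 (0.429 to 2.27). Per length it was the most densely bound of the 9 genes, with 13.7 WT and 44.3 *Mbnl1* KO tags per kb of exon. In *Mbnl1* KO muscle 98.8% of the protein-coding genes with at least 20 tags were below this density, whose median was 0.959. Those genes reached 20 tags over their whole bodies, and the median share of introns in their tags was 78.2%, against 1.79% for *Tcap*. A short gene reaches that cut only with dense tags, so this high rank is partly built in. Its coding sequence had 4 WT and 22 *Mbnl1* KO tags (3.97, 1.35 to 15.8), and its 3′ UTR 9 and 20 (1.60, 0.697 to 4.00). Most of the coding tags formed 1 cluster in exon 2 (98245758 to 98245791), 1 in WT and 14 in *Mbnl1* KO muscle (10.1, 1.54 to 427). The interval of this ratio was 1.05 to 291 without single-base tags in the scale and 0.446 to 136 with at least 2 reads per tag as well, and 1 WT tag stands behind it. This cluster reached 10 tags through the *Mbnl1* KO tags, so its high ratio is partly built in by that cut. The 3′ UTR cluster, from 98245940 to 98246000, had 5 and 8 (1.15, 0.333 to 4.48).

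*Myot* (ENSMUSG00000024471.6, chromosome 18 from 44493728 to 44515378, plus strand) differed from the genes above in where its tags lay. It had 32 WT and 85 *Mbnl1* KO tags (93.1 and 178 per 1000000, ratio 1.91, interval 1.26 to 2.97), and 1.31 (0.861 to 2.03) without single-base tags. With tags of at least 2 reads the ratio turned to 0.95 (0.571 to 1.63). Exon 2 of 10 (44496421 to 44496964), which holds the start of the coding sequence, had 16 WT and 44 *Mbnl1* KO tags. In all, the 5′ UTR had 4 WT and 15 *Mbnl1* KO tags, the coding sequence 16 and 45, and the 3′ UTR 4 and 18. Of the 21 tags counted on 5′ UTRs of the 9 genes, 19 were on *Myot*. Its density of 35.3 *Mbnl1* KO tags per kb of exon was above that of 98.1% of genes with at least 20 tags, a rank with the same limit as that of *Tcap*. The highest cluster, from 44496793 to 44496873 in the coding part of exon 2, had 8 WT and 23 *Mbnl1* KO tags (2.07, 0.895 to 5.36). A cluster in the 3′ UTR (44515236 to 44515276) had 1 and 11 (7.93, 1.15 to 341), and 5.41 (0.787 to 233) without single-base tags in the scale. It reached 10 tags through the *Mbnl1* KO tags, so its high ratio is partly built in by that cut.

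*Flnc* (ENSMUSG00000068699.5, chromosome 6 from 29383153 to 29411888, plus strand) had 13 tags in WT and 50 in *Mbnl1* KO muscle (37.8 and 105 per 1000000), which gives a ratio of 2.77 (1.48 to 5.56). Without single-base tags it was 2.05 (1.08 to 4.23). Its binding was spread over the coding sequence, which had 9 WT and 40 *Mbnl1* KO tags (3.20, 1.53 to 7.51), while the 3′ UTR had 1 and 0. Tags fell on 21 of the 48 exons of the transcript Flnc-002, with no more than 6 on any of them, and the densest spot was a group of 6 tags in exon 35 (29404366 to 29404398), 2 in WT and 4 in *Mbnl1* KO muscle. No cluster of 10 tags formed. The 1 internal exon that some coding transcripts of *Flnc* skip (29402799 to 29402897, 99 nt) had 0 tags in either genotype, also with 250 nt added on each side.

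*Sorbs2* (ENSMUSG00000031626.9, chromosome 8 from 46593148 to 46913259, plus strand) is the longest of the genes, at 320112 nt. Its 24 WT and 46 *Mbnl1* KO tags (69.9 and 96.5 per 1000000) gave a ratio of 1.38 (0.826 to 2.37), and 0.984 (0.577 to 1.72) without single-base tags, and both intervals included 1. Most were intronic, 19 in WT and 30 in *Mbnl1* KO muscle, which is only 0.0632 and 0.0998 tags per kb of intron. Another annotated transcript on the same strand, *Gm16352*, lies within its body. On the mature transcript the tags were few outside the last exon (46911099 to 46913258), whose 3′ UTR had 4 WT and 12 *Mbnl1* KO tags. The 8 internal exons that some coding transcripts of *Sorbs2* skip had 0 tags in either genotype, and within 250 nt of them 1 *Mbnl1* KO tag was counted, beside the 93 nt exon at 46826841. Tags across exon junctions are not in these tables, since each is 1 ungapped block.

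The remaining genes had few tags. *Des* (ENSMUSG00000026208.9, chromosome 1 from 75356904 to 75365154, plus strand) had 6 WT and 15 *Mbnl1* KO tags, 12 of the latter in the coding sequence, with a ratio of 1.80 (0.661 to 5.67). *Myoz1* (ENSMUSG00000068697.6, chromosome 14 from 21468324 to 21475762, minus strand) had 7 and 15 (1.54, 0.593 to 4.48), with 3 and 7 in the coding sequence and 4 and 7 in introns. *Myoz3* (ENSMUSG00000049173.7, chromosome 18 from 60735970 to 60751442, minus strand) had 7 and 7 and was the one gene with a ratio below 1 (0.721, 0.216 to 2.41). Of its WT tags 5 were single-base tags, and without those it had 2 and 5 (1.23, 0.201 to 12.9). At these 3 genes the interval included 1. The annotated 3′ UTR of *Myoz3* is only 34 nt long, and its count leaves out 7 WT and 35 *Mbnl1* KO tags that lay on the same strand in the 5000 nt past its end.

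Where the tags lay was compared over the 9 genes together, with a tag placed by its midpoint. The 3′ UTR held 39.9% (32.6 to 47.5) of the WT tags and 49.2% (44.8 to 53.6) of the *Mbnl1* KO tags, with 95% Clopper-Pearson intervals in brackets, and coding sequence 26.4% (20.1 to 33.5) and 31.2% (27.3 to 35.5). Of the 71 WT and 252 *Mbnl1* KO tags in 3′ UTRs, *Synpo2* had 36 and 117 and *Synpo2l* 17 and 82. The 3′ UTR share thus mostly describes these 2 genes. Introns held 30.3% (23.7 to 37.7) and 16.0% (12.9 to 19.5). Over all protein-coding genes with at least 20 tags, introns held 75.3% and 57.1%, 3′ UTRs 17.6% and 31.8%, and coding sequence 5.81% and 9.66%. The share of intronic tags was thus lower in *Mbnl1* KO muscle both in the 9 genes and over all these genes. The ratio was 2.56 (1.96 to 3.38) in the 3′ UTRs of the 9 genes, 2.45 (1.76 to 3.47) in their coding sequence and 1.09 (0.767 to 1.57) in their introns. Over all genes with at least 20 tags the same ratios were higher, at 3.10, 2.86 and 1.30. Without single-base tags the ratios of the 9 genes were 1.76 (1.35 to 2.33), 1.67 (1.2 to 2.37) and 0.812 (0.540 to 1.23). Of the intronic tags, 12 WT and 15 *Mbnl1* KO tags lay within 250 nt of an exon.

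**Figure D3:**
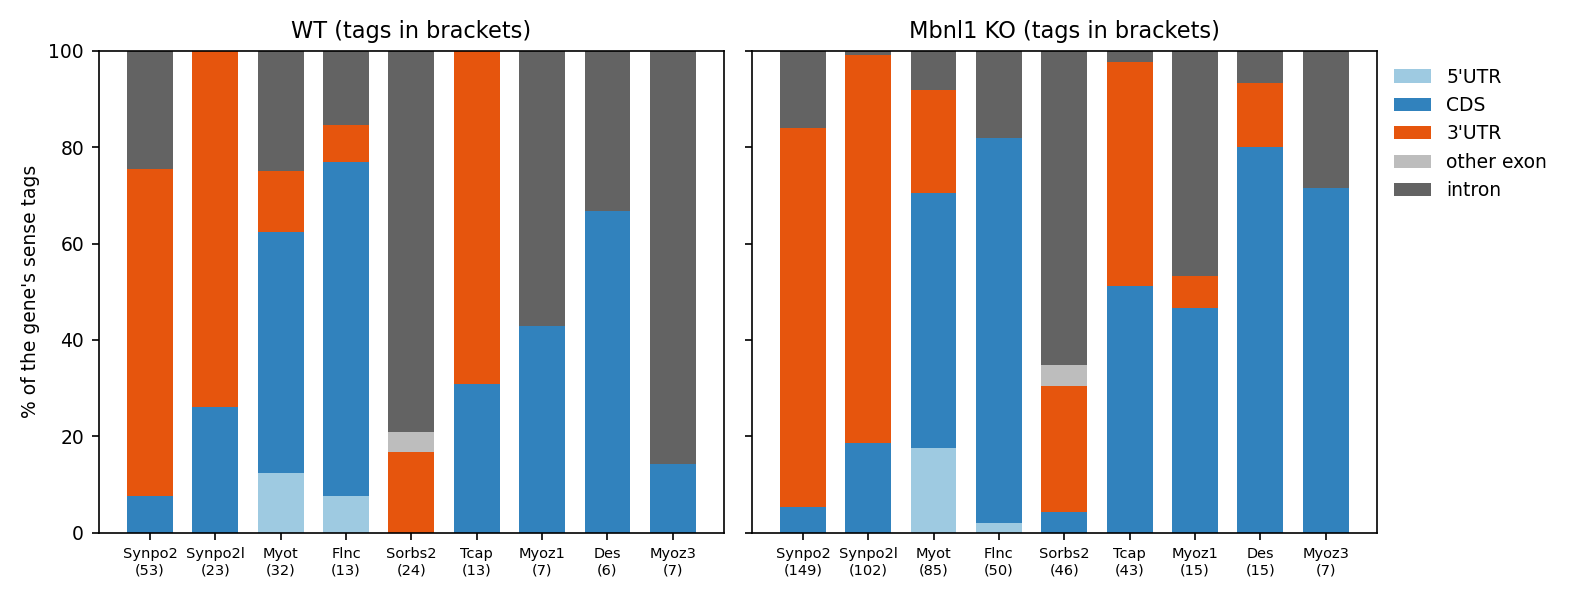
Share of each gene's sense tags in the 5′ UTR, coding sequence (CDS), 3′ UTR, other annotated exons and introns, in WT (left) and *Mbnl1* KO muscle (right), with the number of tags in brackets. *Synpo2* and *Synpo2l* are mostly 3′ UTR (67.9% and 73.9% of WT tags, 78.5% and 80.4% of *Mbnl1* KO tags), *Flnc* and *Des* mostly coding sequence and *Sorbs2* mostly intron (79.2% and 65.2%).

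The order of the genes by *Mbnl1* KO tags per kb of exon was *Tcap* (44.3), *Myot* (35.3), *Synpo2l* (21.8), *Synpo2* (13.3), *Myoz1* (6.18), *Myoz3* (5.75), *Flnc* (4.30), *Des* (3.73) and *Sorbs2* (0.824). In WT muscle, *Tcap* (13.7) and *Myot* (10.9) were again the densest and *Sorbs2* (0.257) the least dense. Single-base tags were rarer on the 9 genes than in either table, at 8.43% in WT (4.79 to 13.5) and 3.32% in *Mbnl1* KO muscle (1.95 to 5.26). On the opposite strand, 38 WT and 47 *Mbnl1* KO tags were counted, a ratio of 0.892 (0.569 to 1.41). This is 17.6% of the WT and 8.41% of the *Mbnl1* KO tags on both strands of the 9 genes, against 43.9% and 27.2% over all protein-coding genes.

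Among 20 other genes of the Z-disc and intermediate filaments, from *Actn2* (alpha-actinin) to *Plec* (plectin), 263 WT and 842 *Mbnl1* KO tags were counted, a ratio of 2.31 (2.01 to 2.66). Of the 13 with at least 20 tags, the ratio reached 2 at 7 and the interval lay above 1 at 8, with a median of 2.29 (41.6%, 38.6% and 1.75 for all genes, as above). Without single-base tags, 13 of the 20 had at least 20 tags, with a median of 1.72 and the interval above 1 at 6 (1.48 and 26.5% for all genes). With at least 2 reads per tag as well, 11 had as many, with a median of 1.11 and the interval above 1 at 1 (1.33 and 11.1%). Synemin (*Synm*), a partner of desmin in its filaments, had 15 WT and 93 *Mbnl1* KO tags (4.47, 2.58 to 8.31). *Actn2* had 14 and 78 (4.02, 2.26 to 7.68). Without single-base tags and with at least 2 reads per tag, *Synm* was at 1.85 (0.938 to 4.05) and *Actn2* at 2.12 (1.0 to 5.15). *Myoz2*, the calsarcin of slow and cardiac muscle, had 0 WT and 8 *Mbnl1* KO tags, and the part of slow fibres in this was not tested. The intervals show counting error only, and no difference between the 2 lists was tested.

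The ratios depended on which tags were counted and on the scale. *Synpo2l* and *Flnc* were above 1 in each of the 11 settings tried, from 1.83 to 35.7 for *Synpo2l* and from 1.59 to 6.95 for *Flnc*, as were *Synpo2* and *Des*, while *Sorbs2* was on either side of 1. The upper values came from tags of at least 30 nt and rest on few WT tags. *Synpo2l* then had 1 WT and 36 *Mbnl1* KO tags (interval 6.01 to 1450), and *Flnc* 2 and 14 (1.6 to 63.0). The intervals of *Flnc* and *Synpo2* included 1 with the median gene set to 1 and with tags of at least 2 reads. That of *Synpo2l* did so without single-base tags and with at least 2 reads (0.983 to 3.71), and that of *Des* in each setting. *Myot* changed direction when at least 2 reads per tag were required, from 1.91 to 0.95 (0.571 to 1.63), and *Tcap* did so when single-base tags were left out as well, from 2.38 to 0.94 (0.429 to 2.27). There were 105.6 reads per tag in *Mbnl1* KO and 15.1 in WT muscle, and the part of this difference in the ratios was not tested.

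**Figure D4:**
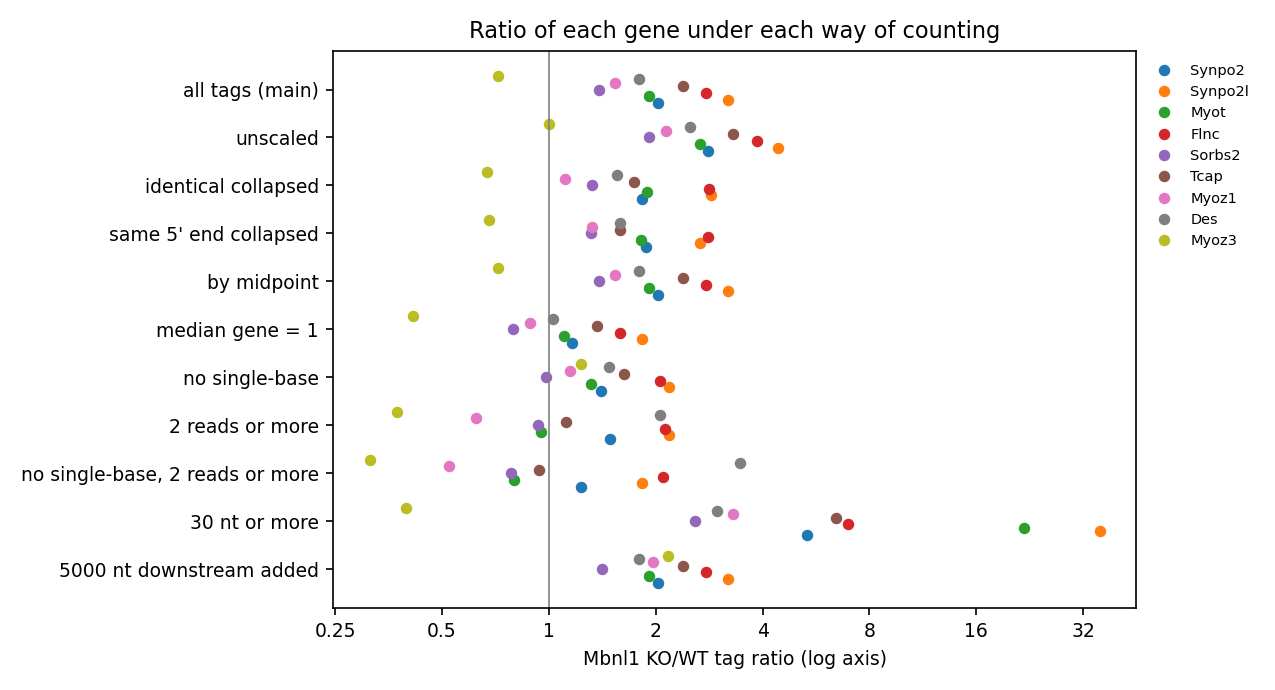
*Mbnl1* KO/WT tag ratio (log axis) of each gene under each way of counting, 1 point per gene and setting. *Synpo2l*, *Flnc*, *Synpo2* and *Des* lie to the right of 1 throughout, the first 2 from 1.83 and 1.59 upward, while the points of *Myot*, *Tcap*, *Sorbs2*, *Myoz1* and *Myoz3* fall on both sides.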

How the data were processed

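Mbnl2 HITS-CLIP tags from quadriceps of WT and *Mbnl1* KO mice were deposited as 1 table per genotype, merged over 3 mice. Per the study's methods and the labels, the authors aligned reads to mm9 with BWA (version not given in the sources used here) and collapsed them to unique tags. The deposited score column is a count of the reads behind each tag, and each row is 1 ungapped block of 18 to 33 nt. No tag passed the end of an NCBIM37 (mm9) chromosome.

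From these tables, tags overlapping a gene body by at least 1 nt on its strand in GENCODE vM1 were counted in Python 3.11.15 (pandas 2.3.3, numpy 2.4.6), intervals came from scipy 1.17.1 and plots from matplotlib 3.10.9. Counts were scaled to 1000000 tags of the table. The *Mbnl1* KO/WT ratio has an exact 95% Clopper-Pearson interval, and with 1 table per genotype no p-value was computed. A tag's region was that of its midpoint, in the order coding sequence, 3′ UTR, 5′ UTR, other exon, intron. A cluster is a run of overlapping tags of both tables, at least 10 tags where described. Simulated counts for 3888 genes were used to check the ratio intervals, and 96.7% of these held the true ratio. A lower bound over 1 was reached by 57% of simulated 2-fold gains, 93% of 4-fold gains and 1.68% of unchanged genes. Many true 2-fold gains would thus be missed. No such value is given for clusters or regions.

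The 9 genes and the lists were chosen with earlier results of these data known. All 9 genes are named, with each cluster of at least 10 tags, and 20 other Z-disc and intermediate filament genes as counts with examples. Depth was 343554 WT and 476543 *Mbnl1* KO tags, so 0 WT tags allow up to 8.73 per 1000000 (3 counts). Tags are not independent molecules beyond the collapse of identical reads, so intervals cover counting error only. The alternatives were raw tags, a scale that sets the median gene to 1, collapse of identical tags or of tags with the same 5′ end, counting by midpoint, tags of at least 30 nt, tags of at least 2 reads, removal of single-base tags, and the longest transcript for regions.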

Additional observations from a re-analysis of the deposited data

Results flagged for a closer look

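Tags in the 5000 nt past the 3′ end of *Myoz3*, outside the gene bodies counted above except in 1 of the settings, were more frequent in *Mbnl1* KO muscle. There were 7 WT and 35 *Mbnl1* KO tags on the strand of *Myoz3*, a ratio of 3.60 (1.58 to 9.62), and 2.46 (1.08 to 6.56) without single-base tags. The 3′ UTRs of all genes with at least 20 tags had a ratio of 3.10 (3.04 to 3.17) with all tags, so the value of this stretch is near theirs. It was picked after seeing the data, and no value with at least 2 reads per tag is given for it. Their midpoints lay 19 to 2487 nt past the annotated end, with a median of 304. Of these, 4 WT and 15 *Mbnl1* KO tags formed a cluster that spans 4 to 56 nt past the end (60735914 to 60735966 on chromosome 18), whose 30 nt site held 3 YGCY motifs (ratio 2.70, 0.861 to 11.2). The annotation has *Rbm22* in this stretch, on the opposite strand. With these tags added, *Myoz3* had 14 WT and 42 *Mbnl1* KO tags and a ratio of 2.16 (1.16 to 4.29). Past the ends of the other 8 genes there were 0 to 2 WT and 0 to 5 *Mbnl1* KO tags.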

How the results depend on the processing

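The median ratio of the 9 genes (1.91) was 1.10 when the median gene was set to 1, 1.12 with tags of at least 2 reads, 5.34 with tags of at least 30 nt, and 0.94 without single-base tags and with at least 2 reads, a setting in which 3 of the 9 genes had fewer than 20 tags and the other 6 a median of 1.08. The number of genes at a ratio of at least 2 (4) was 7 with raw tags, 8 with tags of at least 30 nt, 0 with the median gene set to 1, and 2 without single-base tags, also with at least 2 reads, with identical tags collapsed and with the same 5′ end collapsed. Of the tags of at least 30 nt, the 3′ UTR held 20% in WT (7 of 35 tags, 8.44 to 36.9) and 50.5% in *Mbnl1* KO muscle (43.5 to 57.5). With regions from the longest transcript only, in which the 3′ UTR of Synpo2-001 is intronic, it held 19.7% of the WT and 26.2% of the *Mbnl1* KO tags. *Myot* turned from 1.91 to 0.95 with tags of at least 2 reads and to 0.798 without single-base tags as well, and *Tcap* from 2.38 to 0.94 in the latter. The cause was not tested. The 5000 nt past the genes were added after seeing the data, and not for *Synpo2l* and *Tcap*, which have another gene on the same strand there. No paired analysis was possible because 3 mice were merged into 1 table per genotype, and for the same reason no replicate could be left out.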

Other observations

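The reads behind the tags were uneven along these genes. Of the 60919 *Mbnl1* KO reads on *Synpo2*, 46218 stood behind 7 tags in a stretch of 25 nt just after the stop codon of Synpo2-001 (122815227 to 122815251), where WT muscle had 1 tag. Of the 7288 WT reads on *Synpo2*, 6815 stood behind 4 tags at another position of the same 3′ UTR (122814673 to 122814723), which had 8 *Mbnl1* KO tags with 1380 reads. On *Myot*, 18566 of 39535 *Mbnl1* KO reads lay in the 3′ UTR cluster of 11 tags. Reads were therefore used nowhere as a measure of binding.

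On the strand opposite to the 9 genes, *Sorbs2* (15 WT and 17 *Mbnl1* KO tags), *Synpo2* (9 and 18) and *Myoz3* (7 and 8) had most of the tags, while *Flnc*, *Myoz1* and *Tcap* had 0 in either genotype. *Csrp3*, muscle LIM protein, and *Ankrd2*, a stretch-responsive ankyrin repeat protein, had 0 WT tags, and 12 and 8 *Mbnl1* KO tags (25.2 and 16.8 per 1000000). With the counting error of the *Mbnl1* KO tags set aside, these are at least 2.88-fold and 1.92-fold higher than in WT muscle, and *Myoz2* at least 1.92-fold. The intervals of the ratios, which cover that error, ran from 2.0 upward for *Csrp3* and from 1.23 for *Ankrd2* and *Myoz2*. Without single-base tags in the scale the intervals of *Ankrd2* and *Myoz2* included 1, and with at least 2 reads per tag as well those of all 3 did.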
